A study of Homo sapiens with 6 samples.

Results

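The RNA levels of 10 chemokine and inflammatory cytokine genes were compared across 6 human prostate cancer cell lines. The genes were CCL2, CCL20, CXCL1, CXCL2, CXCL3, IL8, CXCL10, CXCL12, CX3CL1 and IL6, taken by name from the 47032 gene symbols of the deposited tables, and all 10 were found. The set was put together around CCL2, which was picked for its difference between VCaP and VCaP-CR. Values of CCL2 in those libraries are therefore a description. LnCaP and LAPC4 are labelled castration sensitive and were grown in RPMI with 10% FBS. VCaP is labelled castration sensitive and was grown in DMEM with 10% FBS. The castration resistant lines are LnCaP-abl, VCaP-CR and LAPC4-CR, all grown in RPMI with 10% charcoal-stripped FBS (serum from which steroids are largely removed) plus B27. Each line was sequenced as 1 library of total RNA, and no other treatment was given. Medium and state differ together in every pair and cannot be told apart. Nothing in the labels says how many clones or cultures stand behind a resistant line. Values of a pair are given below with the sensitive line first.

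Chemokines are small secreted proteins that bind G protein-coupled receptors and draw leukocytes towards their source. CC chemokines such as CCL2 act mainly on monocytes and lymphocytes, and CXC chemokines with a Glu-Leu-Arg motif (CXCL1, CXCL2, CXCL3 and IL8) act on neutrophils through CXCR1 and CXCR2. Many of these genes are classic targets of the transcription factor NF-kappaB, and in prostate cancer IL6 and CCL2 have been studied as signals between tumour cells and their surroundings.

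Total counts ran from 8661337 in LnCaP to 22433655 in LAPC4-CR, and each resistant line was sequenced more deeply than its sensitive partner. Levels are given as scaled FPKM, the deposited FPKM (reads per gene length and library total) divided by 1 factor per library. As a check of the labels, the luminal epithelial genes KRT8, KRT18, EPCAM, CDH1, HOXB13 and FOXA1 each stood above the level of the olfactory receptor genes defined below in all 6 lines. The 16 leukocyte markers summed to between 4.10 and 7.15 scaled FPKM per line, with 1 or 2 of 16 above that level. Those above it were CD4 in every line but LnCaP-abl, CD68 in LnCaP-abl, VCaP and VCaP-CR, and CD8A in LnCaP-abl. In the LnCaP pair CD8A had 9 and 75 counts and CD68 13 and 41, while CD4 had 71 and 27. NKG7 was at 0 in LnCaP, LYZ and TYROBP in LnCaP-abl and CD3D in VCaP. Of 7 endothelial markers 6 were measured, and they summed to between 1.13 and 3.31. The 10 fibroblast markers summed to between 2.92 and 7.19 in 5 lines and to 52.5 in VCaP-CR, where LUM alone, the proteoglycan lumican, stood at 49.8. The other 9 summed to 3.32 in VCaP and 2.70 in VCaP-CR. Among them DCN, decorin, had 27 and 88 counts in that pair (ratio 2.01, 95% counting interval 1.29 to 3.22) and ACTA2, smooth muscle actin, 42 and 21 (0.309, 0.174 to 0.533). COL1A2, a collagen gene, had 49 and 52 counts there (0.655, 0.435 to 0.988). In such bulk libraries, fewer cells that make an RNA and less of it per cell cannot be told apart.

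Most of these genes were close to silent, and 1 was not. CCL2 stood at 62.8 scaled FPKM in VCaP-CR, while no other value of the 10 genes in any line was above 3.06. To read the low levels, 375 olfactory receptor genes were used, which epithelial cells are not known to need. This reference was chosen after the values were seen. The 95th percentile of the olfactory receptor genes lay between 0.460 scaled FPKM in VCaP-CR and 0.802 in LnCaP. None of the 10 genes stood above it in LnCaP, LAPC4 or LAPC4-CR. In LnCaP-abl 3 of 10 did (CCL2, CCL20 and IL8), in VCaP 4 (CCL2, CCL20, IL8 and CXCL10) and in VCaP-CR 7 (the same 4 with CXCL1, CXCL3 and CX3CL1). The limit is each line's own and was lowest in VCaP-CR. CX3CL1 there (0.486) was under the limit of each other line, and CXCL3 (0.558) under all but that of LAPC4-CR (0.532). The share of all genes above the limit was not computed, so these numbers are a description. Depth differed between the lines as well (17966431 counts in VCaP-CR and 22433655 in LAPC4-CR), and its part in these numbers was not tested.

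**Figure D1:**
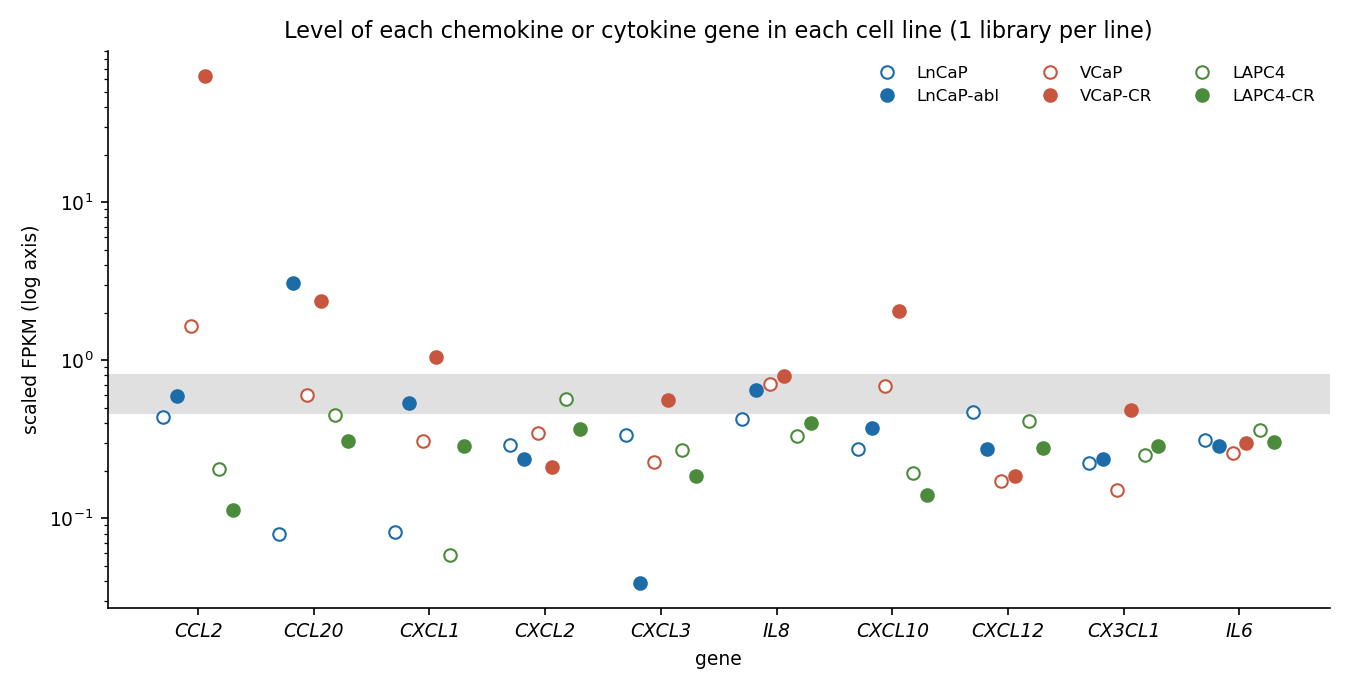
Level of the 10 genes (horizontal axis) in each of the 6 lines (vertical axis, scaled FPKM, log scale); open points are sensitive lines, filled points resistant lines, with 1 library each and no error bar. The grey band spans the 95th percentiles of 375 olfactory receptor genes over the 6 lines (0.460 to 0.802); CCL2 in VCaP-CR stands at 62.8 and most other points lie in or under the band.

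CCL2 (ENSG00000108691, chromosome 17, 29606426 to 29608335 in hg18) encodes the monocyte chemoattractant MCP-1. The LnCaP pair had 3 and 5 counts, the VCaP pair 12 and 742, and the LAPC4 pair 2 and 2. As scaled FPKM these were 0.437 and 0.593, 1.65 and 62.8, and 0.206 and 0.113. The VCaP lineage thus held the top 2 levels, and the other 4 libraries had at most 5 counts each. VCaP-CR stood 38.2-fold above VCaP (95% exact interval of the ratio of counts 21.7 to 74.2, counting error only). On the log2(scaled FPKM + 1) scale the difference was 4.59, which ranked 3 among the 17379 tested genes, those whose mean over the libraries reached 1 scaled FPKM. Among 19935 protein-coding genes CCL2 ranked 9455 in VCaP and 432 in VCaP-CR. In the LnCaP pair the ratio was 1.36 (0.264 to 8.75), an interval that covers both a fall and a rise of several fold. In the LAPC4 pair both libraries had 2 counts, too few for a ratio.

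CCL2 lies in a cluster of CC chemokine genes, and its neighbours did not share its level. CCL7, CCL11, CCL8, CCL13 and CCL1, the genes within 200 kb of it, attract monocytes, eosinophils and other leukocytes. In VCaP they had 1, 4, 4, 3 and 1 counts, and in VCaP-CR 0, 0, 5, 1 and 3. CCL7, the nearest, had 0 counts in the library in which CCL2 had 742.

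**Figure D2:**
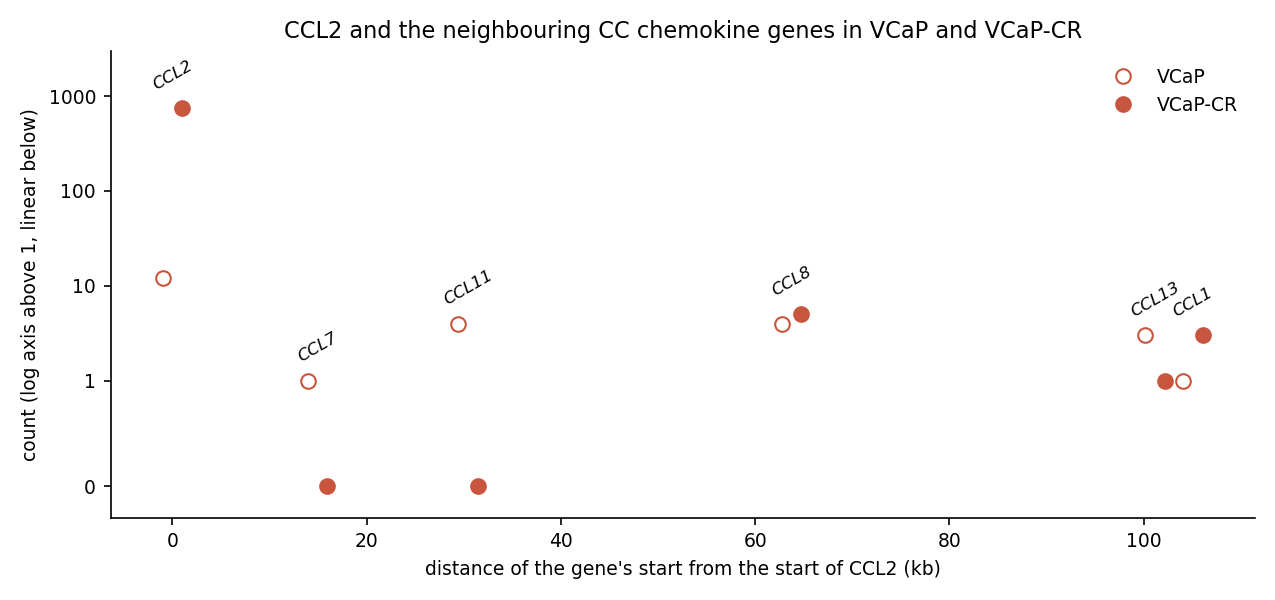
Counts of CCL2 and the 5 CC chemokine genes within 200 kb (vertical axis, log scale above 1 and linear below) against the distance of each gene's start from that of CCL2 in kb (horizontal axis); open points are VCaP, filled points VCaP-CR, set apart sideways so that both show. CCL2 goes from 12 to 742 counts while each neighbour has at most 5 in either library.

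CCL20 (ENSG00000115009, chromosome 2, 228386802 to 228390516 in hg18) encodes the ligand of CCR6 and attracts dendritic cells and lymphocytes. Its counts were 1 and 47 for the LnCaP pair, 8 and 51 for the VCaP pair, and 8 and 10 for the LAPC4 pair. Its levels were 0.0799 and 3.06, 0.601 and 2.37, and 0.451 and 0.310 scaled FPKM. LnCaP-abl and VCaP-CR were the 2 high libraries. The ratio was 38.3 in the LnCaP pair (6.55 to 1544, a wide interval because LnCaP had 1 count) and 3.93 in the VCaP pair (1.85 to 9.60). In the LAPC4 pair it was 0.686 (0.244 to 2.0). On the log2(scaled FPKM + 1) scale the differences were 1.91, 1.07 and -0.15. CCL20 was the 1 gene of the 10 whose interval lay above 1 in more than 1 pair.

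The promoters of CCL20, CXCL10, CXCL1 and IL8 are shown because the counting intervals of the first 3 lay above 1 in the VCaP pair and that of IL8 covered 1, while all 4 hold the letters of an NF-kappaB motif. The sequences are from RefSeq (GRCh38.p14, 5′ to 3′ on the gene's own strand, the 250 bases before its start). Capitals mark GGNNTTTCC on either strand.
CCL20 (chr2:227813592-227813841, plus strand): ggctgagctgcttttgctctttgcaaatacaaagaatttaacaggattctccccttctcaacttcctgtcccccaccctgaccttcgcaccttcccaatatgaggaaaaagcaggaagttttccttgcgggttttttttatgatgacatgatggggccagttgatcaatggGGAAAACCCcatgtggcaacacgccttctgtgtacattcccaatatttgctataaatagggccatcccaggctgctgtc
CXCL10 (chr4:76023498-76023747, minus strand): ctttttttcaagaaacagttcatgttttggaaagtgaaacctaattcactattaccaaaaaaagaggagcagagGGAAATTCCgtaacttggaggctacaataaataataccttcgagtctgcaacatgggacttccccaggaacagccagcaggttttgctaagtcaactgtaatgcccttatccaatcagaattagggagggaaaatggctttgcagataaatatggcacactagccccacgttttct
CXCL1 (chr4:73869143-73869392, plus strand): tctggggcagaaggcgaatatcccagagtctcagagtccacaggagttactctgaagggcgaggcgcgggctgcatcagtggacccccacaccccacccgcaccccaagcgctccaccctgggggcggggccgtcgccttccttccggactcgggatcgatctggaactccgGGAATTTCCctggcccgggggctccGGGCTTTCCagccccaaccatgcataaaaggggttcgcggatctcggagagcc
IL8 (chr4:73740319-73740568, plus strand; listed as CXCL8): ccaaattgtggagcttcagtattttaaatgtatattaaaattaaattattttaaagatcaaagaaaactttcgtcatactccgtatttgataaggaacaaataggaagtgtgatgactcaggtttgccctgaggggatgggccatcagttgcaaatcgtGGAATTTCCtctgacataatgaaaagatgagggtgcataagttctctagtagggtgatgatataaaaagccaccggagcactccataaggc
Of the 10 genes 8 had a promoter sequence there, all but CCL2 and CX3CL1. Windows of 300 bases (250 before and 50 after the start) were searched on both strands. GGNNTTTCC was in 7 of 8 windows, all but that of CXCL12, and in 6.26% of 35116 promoters. It ran from -79 to -71 in CCL20 (minus strand), from -91 to -83 in IL8 and from -176 to -168 in CXCL10 (minus strand), counted back from the start. CXCL1 held it from -78 to -70 and again from -53 to -45. TGANTCA, an AP-1 motif, was in IL8 and in 7.71% of promoters. The interferon-stimulated element was in CXCL10 and in 3.57%. These are matches of letters, and they occur both in genes whose interval in the VCaP pair lay above 1 and in genes whose interval covered 1.

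CXCL1, CXCL2 and CXCL3 (GRO-alpha, GRO-beta and GRO-gamma) are near relatives in 1 cluster on chromosome 4 (hg18 74953974 to 74955823, 75181657 to 75183874 and 75121170 to 75123388). Their promoter windows share 71.9% to 82.5% of aligned bases. Parts of their transcripts are also alike: in GENCODE release 29 transcripts, 13.45% of the 35-base words of CXCL1, 17.31% of those of CXCL2 and 8.45% of those of CXCL3 occur in another gene. No source used here gives the read length or the treatment of reads with several matches, so their counts are uncertain by that overlap.

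CXCL1 had 1 and 8 counts in the LnCaP pair, 4 and 22 for VCaP and its resistant line, and 1 and 9 for LAPC4 and its own. As scaled FPKM these were 0.0823 and 0.536, 0.310 and 1.05, and 0.0581 and 0.287. The resistant library was the higher one in 3 of 3 pairs, with ratios of 6.52 (0.874 to 289), 3.39 (1.15 to 13.6) and 4.94 (0.685 to 217). The interval excluded 1 in the VCaP pair only. The groups overlapped, since LAPC4-CR was below VCaP. The ratios of IL8 and CX3CL1, given below, also lay above 1 in 3 of 3 pairs. The share of all genes with 1 direction in 3 of 3 pairs was not computed. Such agreement is a description, here and for the genes below.

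CXCL2 had between 4 and 13 counts per library, and its level ran from 0.212 scaled FPKM in VCaP-CR to 0.568 in LAPC4. Its ratios were 0.815 (0.152 to 4.38), 0.617 (0.142 to 2.68) and 0.649 (0.268 to 1.60) in the LnCaP, VCaP and LAPC4 pairs. CXCL3 had 7 and 1 counts in the LnCaP pair, 5 and 20 in that of VCaP and 8 and 10 in that of LAPC4, or 0.336 and 0.0392, 0.226 and 0.558, and 0.271 and 0.186 scaled FPKM. Differences between the 3 GRO genes were not tested, and their intervals overlapped in each pair. In the LnCaP pair CXCL3 was lower in the resistant line, with a ratio of 0.116 (0.00258 to 0.906). In the VCaP pair its ratio was 2.47 (0.899 to 8.42) and in the LAPC4 pair 0.686 (0.244 to 2.0). CXCL3 in LnCaP and CXCL2 in every library stood under the olfactory 95th percentile of their line.

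IL8 (CXCL8, chromosome 4, 74825087 to 74828297 in hg18), the neutrophil chemokine interleukin 8, had 9 and 17 counts in the LnCaP pair, 16 and 29 in that of VCaP and 10 and 22 in that of LAPC4. These were 0.422 and 0.649, 0.706 and 0.790, and 0.331 and 0.400 scaled FPKM. Per length and depth the differences were smaller than in counts, with ratios of 1.54 (0.649 to 3.92), 1.12 (0.588 to 2.21) and 1.21 (0.549 to 2.86). All 3 intervals covered 1. The 5 genes whose profile over the 6 libraries lay nearest to that of IL8 were AP3S2, MED15, GNAI3 and 2 pseudogenes. Their distances were 0.118 to 0.142 on the log2(scaled FPKM + 1) scale, which understates differences of low genes. IL8 itself ran from 0.331 to 0.790 scaled FPKM, so these small distances do not show a flat profile.

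CXCL10 (IP-10, the interferon-induced ligand of CXCR3 on T cells; chromosome 4, 77161297 to 77163674 in hg18) had 3 and 5 counts in the LnCaP pair, 8 and 39 in that of VCaP and 3 and 4 in that of LAPC4. Its levels were 0.273 and 0.370, 0.684 and 2.06, and 0.193 and 0.141 scaled FPKM. As with CCL2, the 2 VCaP libraries were the highest. The ratio was 3.01 in the VCaP pair (1.39 to 7.45), 1.36 in the LnCaP pair (0.264 to 8.75) and 0.732 in the LAPC4 pair (0.124 to 5.0). CXCL10 lies inside the span of ART3, which had 26 counts in VCaP and 34 in VCaP-CR, and use of strand in the counting is not given. CXCL9 and CXCL11, its neighbours and fellow CXCR3 ligands, had 4 and 11 counts in VCaP and 10 and 8 in VCaP-CR.

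CXCL12 (SDF-1, the ligand of CXCR4 and CXCR7, made in tissues mainly by stromal cells; chromosome 10, 44113044 to 44201947 in hg18) had between 11 and 43 counts. Its level was highest in LnCaP at 0.468 scaled FPKM and lowest in VCaP at 0.173. The ratios were 0.582 (0.311 to 1.07), 1.07 (0.482 to 2.48) and 0.674 (0.422 to 1.09), and no interval excluded 1. CXCL12 stood under the olfactory 95th percentile in all 6 lines.

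CX3CL1 (fractalkine, a membrane-bound chemokine that proteases can shed; chromosome 16, 55963876 to 55976461 in hg18) had 7 and 9 counts in the LnCaP pair, 5 and 26 in that of VCaP and 11 and 23 in that of LAPC4. Its level was 0.151 scaled FPKM for VCaP, 0.486 for VCaP-CR and between 0.225 and 0.287 in the other 4 lines. The VCaP pair had a ratio of 3.21 (1.21 to 10.7), against 1.05 (0.347 to 3.31) in the LnCaP pair and 1.15 (0.538 to 2.61) in the LAPC4 pair. VCaP was thus the lowest of the 6 lines and VCaP-CR the highest.

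IL6 (chromosome 7, 22732028 to 22738146 in hg18), the cytokine that signals through gp130 and STAT3, stood at a low level in every line. It had 8 and 9 counts in the LnCaP pair, 7 and 13 in that of VCaP and 13 and 20 in that of LAPC4, or 0.315 and 0.288, 0.259 and 0.297, and 0.361 and 0.305 scaled FPKM. The ratios were 0.917 (0.314 to 2.73), 1.15 (0.425 to 3.39) and 0.845 (0.400 to 1.85). IL6 stood under the olfactory 95th percentile in all 6 lines, and a difference within these intervals was not detectable at this depth. It overlaps AC073072.5, which had at most 5 counts, and 20.69% of its 35-base words occur in another gene.

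The differences within pairs were counted over the 10 genes. At least 2-fold higher on the log2(scaled FPKM + 1) scale were 2 of 10 in VCaP-CR, CCL2 and CCL20, where 2.52% of all 17379 tested genes were. In the LnCaP pair it was 1 of 10, CCL20 (background 6.7%), and in the LAPC4 pair 0 of 10 (5.75%). At least 2-fold lower were 0 of 10 in every pair, against 7.84%, 2.36% and 6.82% of tested genes in the LnCaP, VCaP and LAPC4 pairs. The median difference of the 10 genes was 0.06 for LnCaP, 0.36 for VCaP and -0.08 for LAPC4, beside -0.01, -0.01 and 0.0030 over all tested genes. The set was chosen from the VCaP pair, so nothing is read from its share there.

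The fold threshold with a pseudocount of 1 passes over genes at low levels, so the counting intervals were also used, a measure added after the data were seen. In the VCaP pair the interval lay above 1 for 5 of 10 genes, CCL2, CCL20, CXCL1, CXCL10 and CX3CL1, and below 1 for 0. Among all tested genes 22.8% had it above and 22.4% below. Among the 23952 genes with a mean of 0.1 to 1 scaled FPKM, the range in which 8 of the 10 fall, 1.97% had it above 1 and 3.66% below. CXCL1, CXCL10 and CX3CL1 are in this range, while CCL2 and CCL20 have higher means (10.96 and 1.14). As the set was put together from the VCaP pair, nothing is read from these shares either. In the LnCaP pair the interval lay above 1 for CCL20 and below 1 for CXCL3. The backgrounds there were 31.7% and 26.4% among tested genes and 2.58% and 7.59% among low ones. In the LAPC4 pair 0 of 10 lay above and 0 below, with 32.7% and 29.9% of tested genes and 3.2% and 6.44% of low ones. Without CCL2 the other 9 genes summed to 2.49 and 5.69 scaled FPKM for the LnCaP pair, 3.46 and 8.0 for the VCaP pair, and 2.90 and 2.56 for the LAPC4 pair. CCL2 made up 88.7% of the summed level of the 10 genes in VCaP-CR and 32.3% in VCaP.

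**Figure D3:**
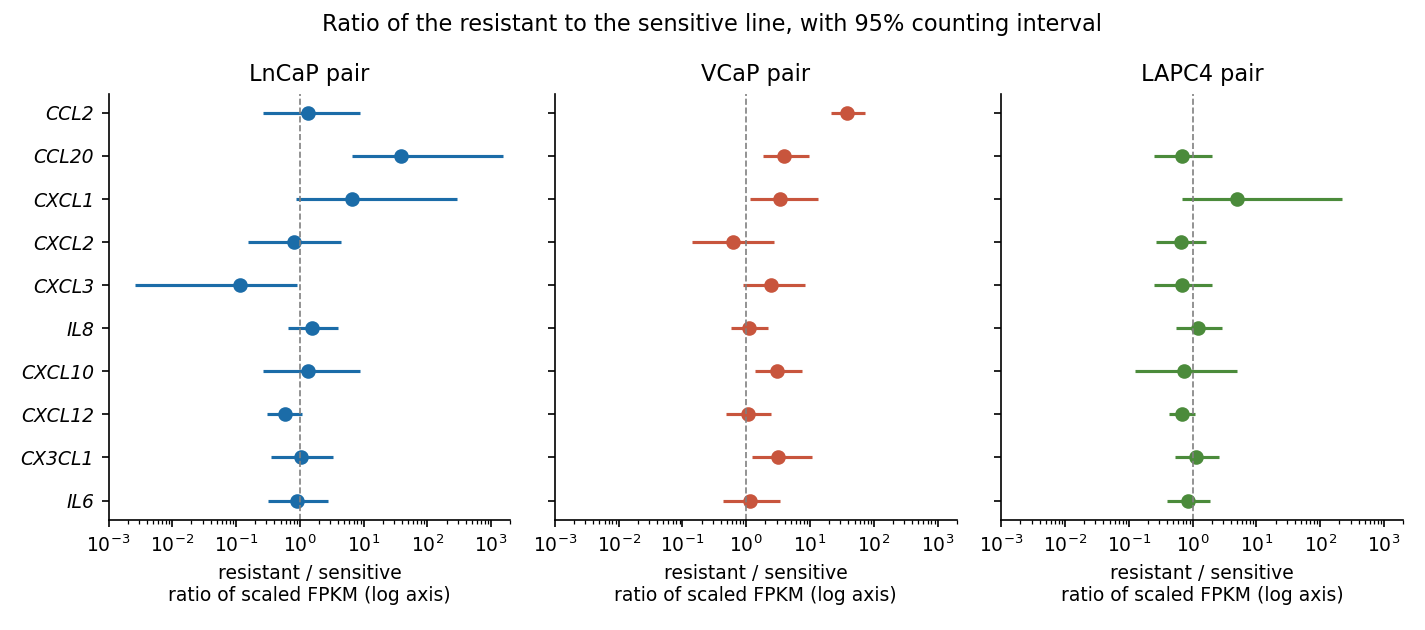
Ratio of the resistant to the sensitive line (horizontal axis, log scale, no unit) for each gene in the 3 pairs; points are ratios of scaled FPKM, lines the exact 95% intervals for counting error, and the dashed line marks equal levels. CCL2 in the LAPC4 pair is left out because both libraries had 2 counts; 5 intervals lie above 1 in the VCaP pair, 1 in the LnCaP pair and none in the LAPC4 pair.

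Across lines, the question was whether a gene differed between the states in all 3 parental backgrounds. With 1 library per line and a block for the parental line, the p-values rest on the spread of the resistant minus sensitive difference between pairs. In edgeR's quasi-likelihood test with a block for the parental line, 0 of 17379 tested genes passed as higher (0%) and 0 as lower (0%) after Benjamini-Hochberg adjustment at 5%. At an unadjusted p under 0.05, 865 were higher and 700 lower. DESeq2 called 93 higher (0.535%) and 64 lower (0.368%) and limma 0 and 0, with 0 of the 10 genes among them; DESeq2 gave CCL20 no adjusted p. CCL2 and CCL20 were the 2 of the 10 that reached the minimum level for testing, each only through the libraries in which it was high. CCL2 had a log2 fold change of 3.18 (SE 1.31, edgeR adjusted p = 0.554), which is a description. For CCL20 it was 1.89 (SE 0.87, edgeR adjusted p = 0.561), with 2 of 3 pairs higher.

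The CCL2 value came from 1 pair. Without the VCaP pair, on the 4 LnCaP and LAPC4 libraries that played no part in its choice, its log2 fold change was -0.04 (SE 0.92, edgeR adjusted p = 0.997). The fits that keep the VCaP pair only describe the libraries from which CCL2 was chosen. Of these, the fit without the LAPC4 pair gave 4.14 (edgeR adjusted p = 0.0478, nominally under the threshold) and the fit without the LnCaP pair 4.44 (edgeR adjusted p = 0.401). In the test of the LnCaP and LAPC4 pairs, 3 genes were higher (0.0173%) and 6 lower (0.0345%), with 0 of the 10 genes among them. CCL20 had a log2 fold change of 1.82 there (SE 1.13, edgeR adjusted p = 0.751). Without the filter on low levels 0 of the 10 passed there either (0.628% of genes higher, 0.509% lower). DESeq2 called 0.541% of genes higher and 0.662% lower there and gave CCL2 and CCL20 no adjusted p. Without the filter on low levels all 10 genes could be fitted across the 3 pairs, with 0.199% of genes higher and 0.138% lower, and 0 of the 10 passed. The smallest edgeR adjusted p-values were then 0.140 for CCL2, 0.161 for CXCL1 and 0.175 for CCL20.

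Levels also differed by parental line. The edgeR test of the parental line term called 2120 genes (12.2%), among them CCL2 (adjusted p = 0.0322) and not CCL20 (adjusted p = 0.456). The CCL2 call rests on the libraries it was chosen from, and without the VCaP pair its edgeR adjusted p was 0.458. With no filter on low levels 4846 genes were called (11.1%), among them CCL2 and CXCL10 (edgeR adjusted p = 0.0012). For both, the VCaP libraries held the highest levels. CXCL10 had 39 counts in VCaP-CR, 8 in VCaP and between 3 and 5 in the other lines. It was tested by parental line under this setting only, and the part of VCaP-CR in its call was not tested.

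The 5 genes that lay nearest to CCL2 over the 6 libraries all had their highest level in VCaP-CR. They were PI15 (a secreted protease inhibitor; distance 1.06, Pearson's r 0.98), LUM (1.29, r 0.967), CRISPLD1 (1.35, r 0.994), CHGA (chromogranin A, a neuroendocrine granule protein; 1.57, r 0.983) and GDAP1 (a mitochondrial protein; 1.66, r 0.968). The distance is Euclidean between centred log2(scaled FPKM + 1) profiles. With 6 libraries, 1 of them far above the rest, r describes that library. PI15 had 23 counts in VCaP and 4586 in VCaP-CR, and LUM 116 and 2420. GDAP1, PI15 and CRISPLD1 lie within 713 kb of each other on chromosome 8. Of the fibroblast markers, LUM and DCN were higher in VCaP-CR with CCL2, and ACTA2 and COL1A2 were lower, by their counting intervals. Their part in the CCL2 difference was not tested.

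**Figure D4:**
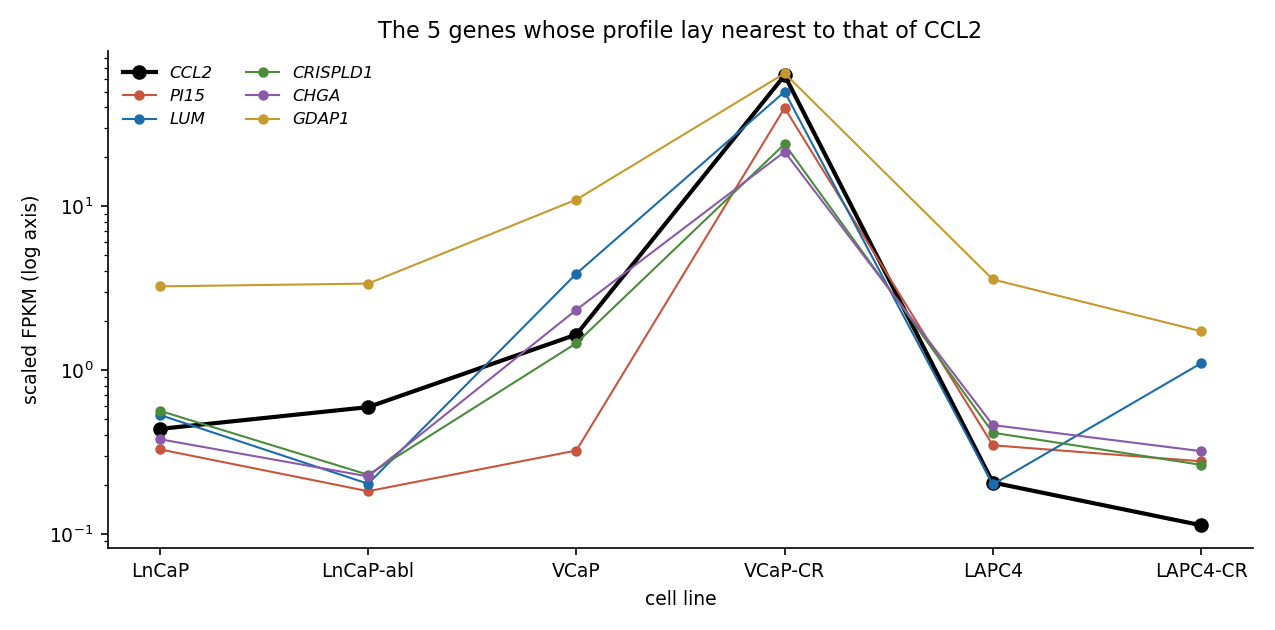
Level of CCL2 (black) and of the 5 genes nearest to it in profile (vertical axis, scaled FPKM, log scale) in the 6 lines (horizontal axis); points are single libraries, and the joining lines only help the eye. All 6 genes peak in VCaP-CR, with CCL2 at 62.8, LUM at 49.8 and GDAP1 at 64.6, and GDAP1 is the one with at least 1.72 scaled FPKM in every line.

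Most of the other 34 chemokine genes examined were also near silent, and 2, CXCL16 and CCL28, reached the minimum level for testing. CXCL16, the membrane-bound ligand of CXCR6, stood at 10.9 and 16.1 scaled FPKM in the LnCaP pair, 5.18 and 6.16 in that of VCaP and 9.23 and 13.8 in that of LAPC4. CCL28, a mucosal chemokine, stood at 0.346 and 2.12, 1.93 and 2.39, and 0.538 and 1.73 in the same order. It was the 1 of these 2 past 2-fold, in the LnCaP pair with a difference of 1.22. Both genes were higher in the resistant line of 3 of 3 pairs, a direction whose share over all genes was not computed. Neither passed edgeR's test across the pairs (adjusted p = 0.626 and 0.518).

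Of 23 chemokine receptor genes 2 were tested. CXCR7, which binds CXCL12, stood at 22.1 and 97.3 scaled FPKM in the LnCaP pair, 2.98 and 1.07 in that of VCaP and 2.03 and 0.732 in that of LAPC4. The direction thus differed by line, with differences on the log2(scaled FPKM + 1) scale of 2.09 (LnCaP), -0.94 (VCaP) and -0.81 (LAPC4). The receptor of CX3CL1, CX3CR1, had 247 counts in LAPC4 and 40 in LAPC4-CR, a difference of -2.06. CCR2, which binds CCL2, stood at 0.269 scaled FPKM for VCaP and 0.365 for VCaP-CR. CCR6, which binds CCL20, stood at 0.328 and 0.391 in the LnCaP pair, 0.404 and 0.176 in that of VCaP (17 and 12 counts, ratio 0.436, interval 0.190 to 0.968) and 0.285 and 0.313 in that of LAPC4. Neither receptor reached the minimum level for testing.

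In the IL6 family 11 of 19 genes were tested, and the receptor chains were the abundant part. IL6ST, the gp130 chain, stood at 8.25 and 25.6 scaled FPKM in LnCaP and LnCaP-abl, 10.0 and 17.5 in the VCaP pair, and 9.15 and 12.2 in the LAPC4 pair. LIFR, its partner for LIF, stood at 3.53 and 8.66, 11.1 and 20.5, and 16.8 and 52.5. Both were higher in the resistant line of 3 of 3 pairs, and neither passed the edgeR test across pairs (adjusted p = 0.518 for each). OSM, a cytokine of this family, was at 11.5 and 28.8 in the VCaP pair, 3.45 and 1.54 in that of LAPC4 and 0.404 and 0.247 in that of LnCaP, and it was called by parental line (edgeR adjusted p = 0.0097). So were IL6R, LIFR and JAK1, which makes 4 of 11, beside 12.2% of all tested genes. STAT3, the transcription factor below gp130, was at 3.40 and 8.32 in the VCaP pair and at 10.1 and 23.4 in that of LAPC4. At least 2-fold higher were 2 of 11 in the LnCaP pair (IL6ST and LIFR), 2 in the VCaP pair (OSM and STAT3) and 3 in the LAPC4 pair (LIFR, OSMR and STAT3). Of all tested genes 6.7%, 2.52% and 5.75% were higher in these pairs, and 7.84%, 2.36% and 6.82% lower. CLCF1, another cytokine of the family, was the 1 at least 2-fold lower, in VCaP-CR (0.343 against 1.87). The list's median difference was 0.28 for LnCaP, 0.09 for VCaP and 0.38 for LAPC4. Over all tested genes the medians were -0.01, -0.01 and 0.003. These backgrounds also hold for the lists below.

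Of 26 genes of NF-kappaB subunits, inhibitors and targets 23 were tested, and few differed by 2-fold. None did between LnCaP and LnCaP-abl. In the VCaP pair TNFAIP3, the inhibitor A20, was higher (25 counts in VCaP and 179 in VCaP-CR, difference 1.10) and the adhesion molecule ICAM1 lower (3.65 scaled FPKM against 1.32 in VCaP-CR). In the LAPC4 pair TNFAIP2 was lower. TNFAIP3 stood at 0.806 scaled FPKM in LnCaP and 2.19 in LnCaP-abl, a difference of 0.82 that is under 2-fold on the log2(scaled FPKM + 1) scale. In LAPC4 it stood at 0.464 and in LAPC4-CR at 0.361. NFKBIA, the inhibitor IkB-alpha, was at 14.8 in VCaP and 20.9 in VCaP-CR. The list's median difference was 0.39 for LnCaP, 0.18 for VCaP and 0.13 for LAPC4.

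Among 22 other inflammatory cytokine genes 6 were tested, and 3 differed by 2-fold in a pair, IL1RN and IL32 in the LnCaP pair and TNFSF10 in that of LAPC4. IL1RN, the IL1 receptor antagonist, had 29 counts in LnCaP and 734 in LnCaP-abl, a ratio of 20.6 (14.2 to 31.0). IL32 had 17 and 658, a ratio of 31.5 (19.6 to 54.5). In the other 4 lines both stood at 0.761 scaled FPKM or less, and both are named after their values were seen. IL1A was at 7.53 and 3.27 in the LnCaP pair, 5.86 and 2.80 in that of VCaP and 7.23 and 5.45 in that of LAPC4, lower in the resistant line of 3 of 3 pairs, though by less than 2-fold in each on the log2(scaled FPKM + 1) scale. TNFSF10, the death ligand TRAIL, was the 1 at least 2-fold lower, in LAPC4-CR (9.64 against 35.3).

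Genes that hold or cut chemokines differed by line. Of 13 such genes 7 were tested. The syndecan SDC2 had levels of 2.31 and 10.1 scaled FPKM in the VCaP pair but 11.6 and 0.502 in that of LAPC4. DPP4, a protease that trims CXCL10 and CXCL12, was at 0.341 and 0.937 in the LnCaP pair, 4.31 and 1.18 in that of VCaP and 4.04 and 0.165 in that of LAPC4. ADAM10, which can shed CX3CL1 and CXCL16, was at 11.3 and 16.8 in the LnCaP pair, 6.64 and 13.1 in that of VCaP and 8.45 and 23.1 in that of LAPC4, past 2-fold in the last with a difference of 1.35. The syndecans SDC1 and SDC4 were past 2-fold in the LnCaP pair. SDC1 stood at 9.88 and 33.5 there, 47.9 and 28.9 in the VCaP pair and 11.2 and 22.0 in that of LAPC4. SDC4 stood at 7.18 and 43.1, 11.6 and 11.3, and 73.6 and 68.0 in the same order. Of 10 interferon signalling genes upstream of CXCL10 9 were tested, and none differed by 2-fold in the VCaP pair, in which their median difference was 0.04. IFNGR2, a chain of the interferon gamma receptor, was higher in LnCaP-abl (18.7 against 6.98) and lower in LAPC4-CR (8.85 against 23.5). Over the 7 lists, 0 genes were called by edgeR across the 3 pairs.

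**Figure D5:**
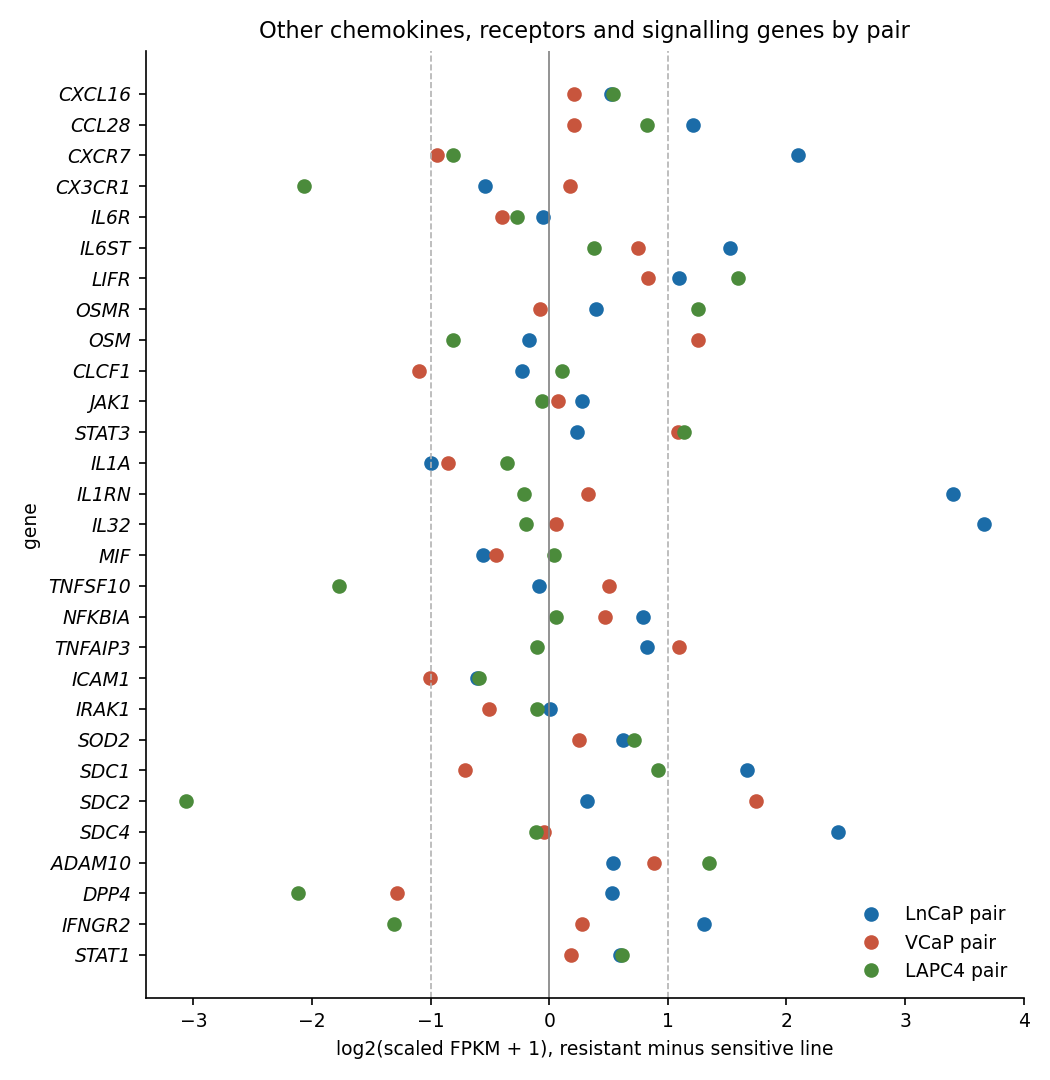
Difference in log2(scaled FPKM + 1), resistant minus sensitive line (horizontal axis), of chemokine, receptor and signalling genes (vertical axis) in the 3 pairs, 1 point per pair and no error bar; dashed lines mark 2-fold. IL32 and IL1RN stand apart in the LnCaP pair and SDC2 lies at 1.75 for VCaP and -3.06 for LAPC4, while LIFR and IL6ST lie right of 0 in all 3.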

How the data were processed

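RNA was measured in 6 prostate cancer cell lines, 1 library each, made with the SOLiD Total RNA-Seq kit per the labels' protocols. The authors counted reads per gene with HTSeq on hg18, per the submitters' processing notes; no source used here gives the aligner, annotation release, read length or use of strand. Per the file headers, each deposited table gives a count and an FPKM value per gene, 51698 entries in all. The deposited FPKM could be rebuilt within 1% as count over gene length and total for all 255869 values above 0.01. The length of LAPC4-CR genes was taken from the other tables.

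Entries sharing a symbol were summed (47032 symbols, 345 of them sums), and 1560 small and mitochondrial RNA symbols were left out. FPKM was divided by a median-ratio factor per library (0.863 to 1.083, from 12482 genes). Tested were the 17379 genes whose mean reached 1 scaled FPKM, among them 2 of the 10. A difference is resistant minus sensitive on log2(scaled FPKM + 1), which understates differences of low genes. Within a pair there is 1 library per state and so no test. Exact Poisson and conditional binomial 95% intervals cover counting error only, and reads without molecular identifiers are not independent molecules.

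Counts were tested across pairs with edgeR 4.0.16 (R 4.3.3, TMM factors, quasi-likelihood, parental line as a block, Benjamini-Hochberg adjustment at 5%), with DESeq2 1.42.0, limma 3.58.1 and other filters and factors as alternatives, and the edgeR script was tested on simulated data. The pairing comes from the line names; deviations from the state means correlated at 0.451, 0.704 and 0.566 within the LnCaP, VCaP and LAPC4 lines. The members and gene lists were chosen with earlier results of these data known. Named genes are the 10, the 3 most abundant tested genes of each list, listed genes at least 2-fold different in the VCaP pair with 20 or more counts, tested receptors of the 10, and the 5 genes nearest to CCL2 and to IL8; other names were added after their values were seen. Coordinates are those of the deposited tables, with starts counted from 1.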

Additional observations from a re-analysis of the deposited data

How the results depend on the processing

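Across the 3 pairs, DESeq2 called 93 genes higher and 64 lower and edgeR without the filter on low levels 87 and 60, and fits on 2 of the pairs called 0 to 34 higher and 1 to 22 lower, with 0 to 1 of the 10 genes called. In the LnCaP and LAPC4 pairs the numbers were 94 and 115 with DESeq2, 274 and 222 without the filter, and 0 and 0 without the replicate block. Without the block, 0 genes were higher and 0 lower across the 3 pairs too. Between parental lines, 3983 genes were called with DESeq2, 4846 without the filter and 476 to 3143 with 1 pair left out. Of the 10 genes, limma called 0, no filter 2, and fits with 1 pair left out 0 to 1. With filterByExpr 4 of the 10 were tested and 0 called. That filter removed CCL2 and CCL20, so it says nothing on them. With a pseudocount of 0.25, the 2-fold limit was passed upwards by 2 of the 10 genes and downwards by 1 in the LnCaP pair and upwards by 4 in the VCaP pair; with one of 5, 0 and 1 were higher in these pairs. By the interval of the ratio of counts 1 was lower in the LnCaP pair and 5 higher in the VCaP pair. Of 60 tested pathway genes, a pseudocount of 5 left 2 higher and 0 lower in the VCaP pair (4 and 3 with a pseudocount of 1) and 2 higher and 3 lower in the LAPC4 pair (4 and 6). The cause of these shifts was not tested, beyond that a larger pseudocount shrinks differences of low genes. Of 180 differences of the 10 genes within pairs under the alternative pseudocounts and factors, 178 kept their sign and 174 their side of the 2-fold limit. The sign changed for CX3CL1 in the LnCaP pair (0.01 against -0.02 with upper quartile or protein-coding factors), and CCL20, CXCL1, CXCL3 and CXCL10 crossed the limit with another pseudocount. Upper quartile factors moved the median of all genes by -0.14 in the LnCaP pair, and factors from protein-coding genes by -0.12 there and -0.11 in the LAPC4 pair. With 1 library per line and at most 51 counts for 9 of the 10 genes, differences inside the counting intervals given above could not be seen.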

Other observations

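Some genes outside the comparisons stood out near the 10 genes or in their receptors, and they were named after their values were seen. CXCR4, the other receptor of CXCL12, had 23 counts in LAPC4 and 173 in LAPC4-CR (ratio 4.13, 95% exact interval for counting error 2.66 to 6.69), against 14 and 6 in the LnCaP pair and 7 and 4 in the VCaP pair. CX3CR1 was lower in LAPC4-CR, in which CXCR4 was higher. RASSF6, next to IL8 on chromosome 4, had 86 counts in VCaP and 261 in VCaP-CR and between 11 and 49 in the other 4 lines. PPBP, a platelet chemokine gene of the same cluster, stood at 1.54 scaled FPKM for VCaP and 0.606 for VCaP-CR. These rest on 11 and 7 counts, too few for a direction to be read.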
